A study of Arabidopsis thaliana with 21 samples.

Results

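The cold and abscisic acid response genes described here are 10 genes of Arabidopsis thaliana, taken by locus identifier from the 32833 genes of the count table. They are the transcription factor genes CBF1 (AT4G25490), CBF2 (AT4G25470), CBF3 (AT4G25480) and DREB2A (AT5G05410), and the target genes COR15A (AT2G42540), COR15B (AT2G42530), COR47 (AT1G20440), KIN1 (AT5G15960), RD29A (AT5G52310) and RD29B (AT5G52300). In TAIR10, CBF2 (chr4:13015250-13016235), CBF3 (chr4:13018010-13019400) and CBF1 (chr4:13021780-13022996) lie in tandem on the minus strand, as do COR15B (chr2:17708593-17710433) and COR15A (chr2:17710441-17712330). RD29B (chr5:21237021-21239531) and RD29A (chr5:21240717-21243644) lie in tandem on the plus strand, where DREB2A (chr5:1602205-1604112) and KIN1 (chr5:5209717-5210826) also lie, and COR47 (chr1:7084409-7086873) is on the minus strand. The rule names the genes and uses no measured value, but they were chosen with earlier results of these data known, and all 10 passed the filter on low counts. RNA of 7-day-old seedlings was sequenced in 21 libraries, with 3 biological replicates in each of 7 groups. Of these groups, 3 were HY5-GFP lines in growth light of 100 µmol per square metre and second, in which the constitutive 35S promoter drove HY5 in a hy5 mutant: K87Q (35S:HY5K87Q-GFP/hy5-1), K87R (35S:HY5K87R-GFP/hy5-2) and K87K (35S:HY5K87K-GFP/hy5-1). The other groups were hy5 and Col-0 wild type (WT), each after 2 h of high light at 500 µmol and in growth light. Growth light was the control condition, and the labels place all growth-light samples, the HY5-GFP lines among them, after 2 h of it. The allele of the plain hy5 samples is not given in the labels, and the number of independent transformants behind each line is not stated. K87R is written with hy5-2 and K87K with hy5-1, so that they may differ in allele as well as in residue. The transgene is expressed wherever the 35S promoter is active, not only where HY5 itself is, and the counts do not separate it from endogenous HY5.

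HY5 is a bZIP transcription factor of light signalling that binds ACGT-containing promoter elements, and the study asked how acetylation of its lysine bears on its function in high light. Glutamine at an acetylated lysine is commonly used to imitate acetylation, and arginine to prevent it. The CBF proteins are AP2/ERF factors that are made within minutes to hours of chilling and bind the C-repeat, or dehydration-responsive element, whose core is CCGAC, in the promoters of COR, KIN and RD29 genes. DREB2A binds the same core and acts in drought, salt and heat, where it leads to heat-stress factors. Abscisic acid works through a separate route, in which bZIP factors of the ABF group bind the element with the core ACGTG. The targets encode hydrophilic proteins that protect membranes and proteins in cells losing water: COR15A and COR15B act in the chloroplast stroma, COR47 is a dehydrin, and KIN1, RD29A and RD29B are small or repetitive hydrophilic proteins.

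The promoters of RD29A and RD29B are shown because, of these neighbouring genes, RD29A was called in high light and RD29B was not, while both were called in K87Q and K87R against K87K. The difference between the genes was not tested. Each stretch is the 250 bases before the annotated start of the gene, read on the gene's strand from the RefSeq genome TAIR10.1, in which the positions of all 10 genes are those of the count table. Capitals mark CCGAC (the C-repeat core), ACGTG (the abscisic acid element core) or GAANNTTC (the heat shock element core), each searched on both strands, so that GTCGG and CACGT are the same cores on the other strand. The RD29A window (chr5:21240467-21240716, plus strand) held 3 CCGAC cores and no ACGTG. Bases past the annotated start were not searched, so that an ACGTG core there would not be seen. The RD29B window (chr5:21236771-21237020, plus strand) held 1 CCGAC and 4 ACGTG cores.
RD29A: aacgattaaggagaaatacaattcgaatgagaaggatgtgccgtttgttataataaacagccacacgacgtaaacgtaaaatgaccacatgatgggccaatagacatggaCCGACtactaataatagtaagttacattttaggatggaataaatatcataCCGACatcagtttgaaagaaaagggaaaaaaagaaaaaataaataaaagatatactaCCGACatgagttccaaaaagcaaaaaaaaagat
RD29B: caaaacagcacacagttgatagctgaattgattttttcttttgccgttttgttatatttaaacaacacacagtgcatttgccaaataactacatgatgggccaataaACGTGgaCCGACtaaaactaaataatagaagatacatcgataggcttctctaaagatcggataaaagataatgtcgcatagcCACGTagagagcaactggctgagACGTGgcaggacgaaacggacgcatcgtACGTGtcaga

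The windows of COR15A and DREB2A are shown for the target with the largest difference between lines that had counts in every group and for the factor with the largest light response. The COR15A window (chr2:17712331-17712580, minus strand) held 2 CCGAC cores and a CACGTG, the G-box, whose letters contain ACGTG on each strand. The DREB2A window (chr5:1601955-1602204, plus strand) held 1 heat shock element core, 1 ACGTG core and no CCGAC.
COR15A: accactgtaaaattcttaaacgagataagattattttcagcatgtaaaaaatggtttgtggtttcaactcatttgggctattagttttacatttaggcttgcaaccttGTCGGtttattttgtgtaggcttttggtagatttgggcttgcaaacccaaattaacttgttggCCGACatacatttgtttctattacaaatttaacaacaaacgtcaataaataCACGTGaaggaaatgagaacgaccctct
DREB2A: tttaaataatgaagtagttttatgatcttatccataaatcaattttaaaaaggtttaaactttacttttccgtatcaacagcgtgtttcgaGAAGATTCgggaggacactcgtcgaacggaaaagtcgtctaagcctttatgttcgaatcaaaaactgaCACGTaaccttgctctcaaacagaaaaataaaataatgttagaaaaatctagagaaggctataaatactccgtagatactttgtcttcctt

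Within 250 bases, CCGAC occurred in 3 of the 10 genes and in 12.0% of 27419 promoters, and ACGTG in 5 of 10 and in 22.9%. The evening element core, AAATATCT, bound by clock factors of the CCA1 group, occurred within 500 bases in 5 of 10, namely CBF1, CBF2, CBF3, DREB2A and KIN1, and in 8.86% of promoters. COR15B and COR47 had no CCGAC within 250 bases and 1 each within 500, and the target KIN1 had none within 500. The upstream bases of COR15B run into COR15A, which ends 7 bases before it. A match is a run of letters and not a shown binding site, and cores past the annotated start of a gene are not counted.

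**Figure D1:**
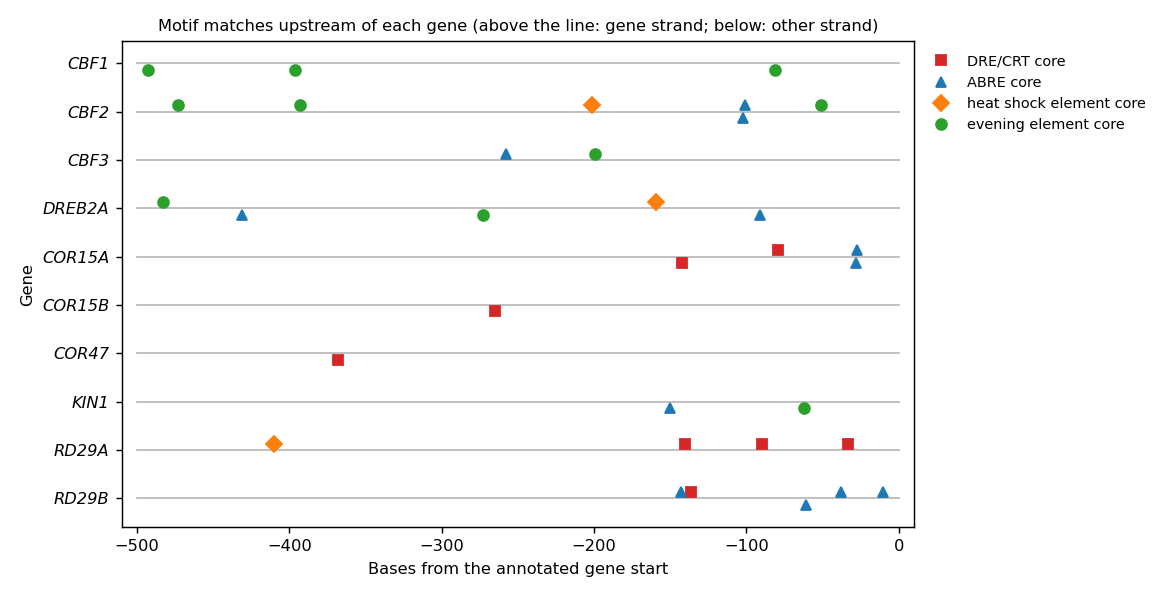
Positions of 4 motif cores in the 500 bases before each gene (x axis, bases from the annotated start; y axis, genes; marks above a line are on the gene's strand, below it on the other). RD29A carries 3 CCGAC cores and RD29B 4 ACGTG cores close to the start, the CBF genes carry evening element cores, and the stretch shown for COR15B lies largely inside COR15A.

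Library depth ranged from 7283290 to 22101539 counts. HY5 itself had 0 to 14 counts in the 6 hy5 libraries, against 88 to 1275 in the 6 WT libraries. In high light the replicate 3 libraries of hy5 and of WT stood apart: the plastid share of counts was 7.30% in hy5 and 6.52% in WT, and the highest share elsewhere was 4.15%, and the summed level of 6 green-tissue markers was 1768 CPM (counts scaled by TMM library size) and 7709 CPM, against at least 26080 CPM elsewhere. The main results in high light are therefore also given without these 2 libraries. Root and green-tissue markers were detected in every group. HY5 averaged 284 CPM in K87K, 248 in K87Q and 344 in K87R, above the 8.6 CPM of WT in growth light and the 66.8 of WT in high light.

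High light raised most of the genes in both genotypes. In hy5, 8 of 10 rose and none fell (edgeR quasi-likelihood test, Benjamini-Hochberg adjusted p under 0.05 over 20234 genes), where 18.9% of all genes tested rose, 17.7% fell and 36.5% changed. In WT, 7 of 10 rose and none fell, where 14% of all genes rose, 10.8% fell and 24.8% changed. The median log2 fold change of the 10 genes was 5.44 in hy5 (3.82 with genes of 3 or fewer growth-light counts set at their ratio or bound) and 4.20 in WT, against 0.00 and 0.03 over all genes. With replicate 3 of high light left out, 8 of 10 rose in each genotype. At that setting 22.9% of all genes rose and 47.4% changed in hy5, and 22.8% rose and 46.6% changed in WT. In bulk RNA, fewer cells of a type and less RNA per cell cannot be told apart. Of 6 root markers, 6 fell in hy5 and 4 in WT in high light. Their summed level was 297 to 861 CPM in high light against 2475 to 2498 in growth light in hy5, and 374 to 611 against 2575 to 3057 in WT, and BGLU23 held 66.3 to 98.0% of the mean sum in each of the 7 groups. EXP7 was not called in WT with all libraries and was higher without replicate 3 of high light (log2 1.85 ± 0.36, adjusted p = 2.40e-04). The part of this in the results was not tested.

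DREB2A had the largest fitted light response. It stood at 143, 500.5 and 264 CPM in high-light hy5, against 0.512, 0.797 and 0.707 in growth light, and rose by log2 8.81 ± 0.70 (SE, adjusted p = 3.28e-08). The WT libraries had 95.5, 88.9 and 383 CPM under high light, against 1.78, 0.876 and 1.91 in growth light, a rise of 6.94 ± 0.64 (adjusted p = 3.00e-07). High-light and growth-light libraries lay far apart in both genotypes, and the highest WT value was that of replicate 3. Without the replicate 3 libraries of high light the rises were 8.93 ± 0.50 in hy5 and 5.89 ± 0.43 in WT.

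The 3 CBF genes, which lie in tandem on chromosome 4 and share 87.3 to 87.5% of coding bases, did not move together. CBF1 stood at 0.463, 2.35 and 0.372 CPM in high-light hy5, against 0.0640, 0 and 0.0884 in growth light, from 39 and 2 counts, which gives a 15.2-fold ratio with a 95% interval of 3.93 to 129.7 from counting (adjusted p = 0.0156). Levels in WT were 1.5, 0.281 and 0.708 CPM in high light, against 0.197, 0.0797 and 0, and the log2 difference of 3.08 ± 1.15 did not pass (adjusted p = 0.0575). The difference between the genotypes was not called (interaction 1.04 ± 1.73, adjusted p = 0.827). The hy5 call was lost without hy5 replicate 1 or 2 of growth light or replicate 2 of high light, and WT passed without the replicate 3 libraries of high light (3.19 ± 1.18, adjusted p = 0.0298). CBF3 stood at 2.64, 0.612 and 0 CPM in hy5 in high light and had 0 counts in all 3 growth-light hy5 libraries, so that the group was at least 11.9-fold higher (adjusted p = 0.0103), a call lost without replicate 1 of hy5 in high light. CBF1 and CBF3 also passed in hy5 without replicate 3 of high light (adjusted p = 0.00517 and 1.67e-04). In WT CBF3 rose by log2 3.50 ± 1.24 (adjusted p = 0.0469), with 3.93, 3.27 and 0.752 CPM under high light against 0.263, 0.159 and 0.247 in growth light. This WT call was lost when any of 15 single libraries was left out (log2 3.09 to 3.63 over all settings that lost it), and without both replicate 3 libraries of high light it held at 3.95 ± 0.86 (adjusted p = 6.57e-04).

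CBF2 was the most abundant of the 3 per length in growth light and was not called in either genotype. It stood at 5.42, 4.69 and 0.0413 CPM in high-light hy5, against 4.41, 3.54 and 2.83 in growth light (log2 -0.12 ± 0.83, adjusted p = 0.931). In WT it stood at 7.52, 2.81 and 1.06 CPM in high light, against 6.71, 3.58 and 3.76 (log2 -0.32 ± 0.82, adjusted p = 0.822). The groups overlapped, and replicate 3 held the lowest value of each high-light group. Without replicate 3 of high light the log2 differences were 0.50 ± 0.45 in hy5 and 0.15 ± 0.45 in WT.

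**Figure D2:**
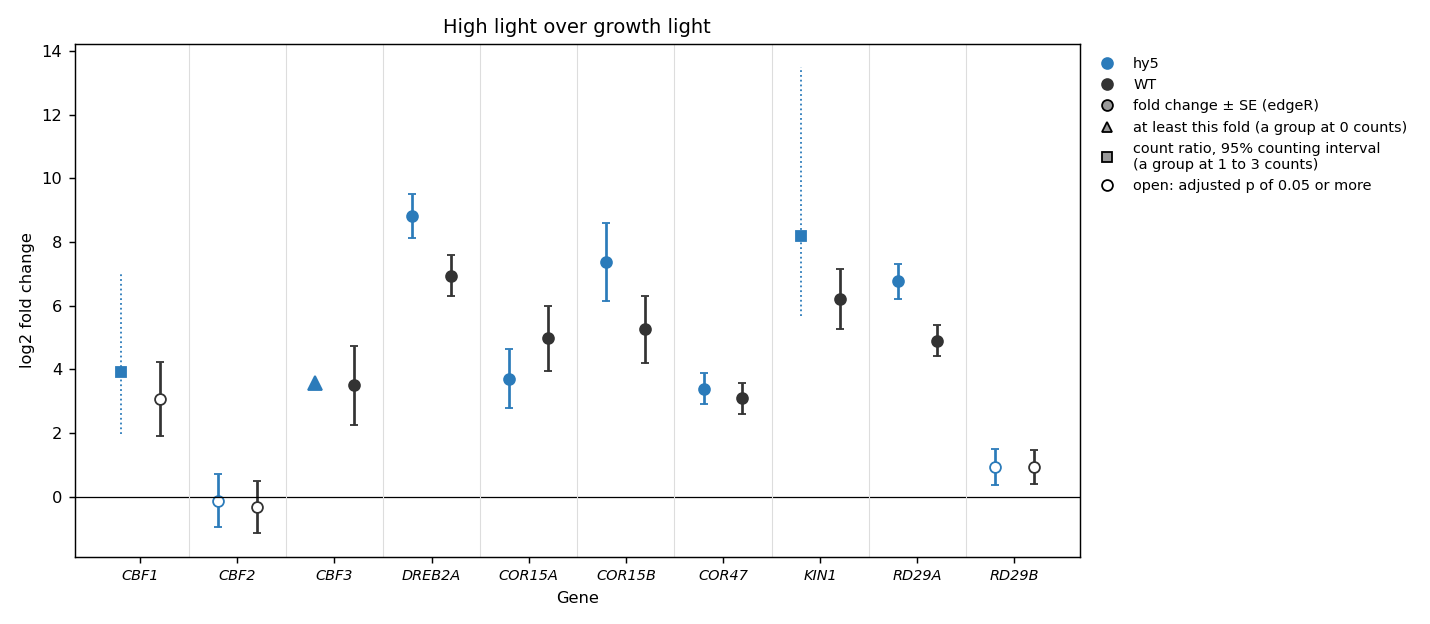
Change in high light over growth light for each gene (y axis, log2; hy5 left of WT; circles, edgeR log2 fold change ± SE; triangle, bound against a group at 0 counts; squares, count ratio with its 95% counting interval). DREB2A and KIN1 lie highest in both genotypes, and CBF2 and RD29B lie below 1 in both, with no call.

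Among the targets, COR47 was the most abundant per length and rose by log2 3.40 ± 0.49 in hy5 (adjusted p = 2.90e-05) and 3.09 ± 0.48 in WT (adjusted p = 1.07e-04). It stood at 932, 1271 and 195 CPM in high-light hy5, against 71.8, 80.8 and 74.9 in growth light, and at 1314, 991 and 525 CPM in WT in high light, against 116, 103 and 113. All high-light libraries lay above all growth-light libraries, with replicate 3 lowest, and without the replicate 3 libraries the rises were 3.87 ± 0.18 in hy5 and 3.38 ± 0.17 in WT. ERD10, the dehydrin gene next to COR47, rose by 4.21 ± 0.32 in hy5 (adjusted p = 1.92e-08) and by 3.93 ± 0.31 in WT (adjusted p = 5.49e-08), or by 4.42 ± 0.25 and 3.90 ± 0.24 without replicate 3. These genes share 82.3% of aligned coding bases.

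COR15A and COR15B both rose, from low levels. COR15A stood at 52.9, 29.7 and 2.40 CPM in high-light hy5, against 2.05, 1.59 and 2.83 in growth light, and rose by log2 3.71 ± 0.93 (adjusted p = 0.00429), with replicate 3 inside the growth-light range. The WT libraries had 45.2, 12.1 and 1.73 CPM, against 0.986, 0.478 and 0.370, a rise of 4.98 ± 1.03 (adjusted p = 0.00150). COR15B stood at 26.0, 26.9 and 3.93 CPM in hy5, against 0.0640, 0 and 0.265, and rose by 7.38 ± 1.23 (adjusted p = 2.06e-04). Levels in WT were 28.2, 5.98 and 1.68 CPM, against 0.395, 0.558 and 0, a rise of 5.25 ± 1.05 (adjusted p = 0.00151). The spread within high light exceeded 10-fold for each gene in at least one genotype, with replicate 3 lowest in every case. Without replicate 3 of high light, COR15A rose by 4.27 ± 0.45 in hy5 and 5.53 ± 0.51 in WT, and COR15B by 7.88 ± 0.84 and 5.81 ± 0.72.

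KIN1 stood at 11, 8.97 and 4.84 CPM in high-light hy5, against 0.0640, 0 and 0 in growth light, or 371 and 1 counts, which gives a 288.8-fold ratio with a 95% interval of 51.5 to 11440 from counting (adjusted p = 1.08e-04). In WT it stood at 101, 21.2 and 3.58 CPM, against 0.986, 0.239 and 0.432, and rose by log2 6.21 ± 0.94 (adjusted p = 8.33e-05), or by 6.75 ± 0.58 without replicate 3 of high light. KIN1 and its neighbour KIN2 share 95% of coding bases, so that reads could have been split between them in counting and the KIN1 values are uncertain. KIN2 was more abundant in each library where KIN1 had counts, 21 to 33.6 times KIN1 in hy5 and 15.6 to 32.5 times in WT in high light, and it rose by 4.45 ± 0.78 (adjusted p = 2.06e-04) in hy5 and 4.83 ± 0.79 (adjusted p = 1.65e-04) in WT, or by 4.79 ± 0.37 and 5.39 ± 0.38 without replicate 3. KIN1 in hy5 passed without it as well (adjusted p = 1.78e-07).

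RD29A and RD29B lie 1185 bases apart on chromosome 5. RD29A stood at 177, 345 and 97.9 CPM in high-light hy5, against 2.94, 1.15 and 1.5 in growth light, and rose by log2 6.76 ± 0.54 (adjusted p = 3.28e-08). The WT libraries had 167, 140.4 and 345 CPM, against 8.94, 5.34 and 7.52, a rise of 4.90 ± 0.49 (adjusted p = 6.74e-07). No high-light library overlapped a growth-light library in either genotype, and without replicate 3 of high light the rises were 7.09 ± 0.33 in hy5 and 4.40 ± 0.29 in WT. RD29B, with the 4 ACGTG cores printed above, stood at 1.19, 2.65 and 0.786 CPM in high-light hy5, against 1.28, 0.709 and 0.265, a log2 difference of 0.94 ± 0.56 that did not pass (adjusted p = 0.195). Levels in WT were 1.84, 1.40 and 2.03 CPM, against 0.592, 0.876 and 1.29 (log2 0.93 ± 0.54, adjusted p = 0.225), and these WT groups did not overlap. Without replicate 3 of high light the differences were 1.26 ± 0.54 in hy5 (adjusted p = 0.0582) and 0.81 ± 0.53 in WT (adjusted p = 0.221). The ratio of RD29A to RD29B counts, which is not per length, was 125 to 149 in high-light hy5, against 1.62 to 5.67 in growth light, and 90.6 to 169.8 in WT in high light, against 5.81 to 15.1.

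The hy5 mutation itself was asked about in each light. In growth light none of the 10 genes was called in hy5 against WT by edgeR, where 0.217% of all genes were. At an unadjusted p under 0.05 there were 3, and DESeq2 called 1. RD29A was lower by log2 -1.94 ± 0.45 (adjusted p = 0.0838), and its 3 hy5 values lay below its 3 WT values. CBF3 had 0 counts over the hy5 group and 10 over WT, and KIN1 had 1 count over hy5 and 25 over WT. COR15A stood at 2.16 ± 0.63 CPM in hy5 and 0.611 ± 0.329 in WT (SD, n = 3 each), with all hy5 values above all WT values (log2 1.80 ± 1.01, adjusted p = 0.630). Without the replicate 3 libraries of high light, which enter the shared estimate of spread, 4 genes were called, where 10.4% of all genes were: RD29A, COR47 and KIN1 lower and COR15A higher in hy5.

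In high light none of the 10 was called in hy5 against WT, where 3.14% of all genes were. At an unadjusted p under 0.05 there was 1, KIN1 (log2 -2.35 ± 0.76, adjusted p = 0.0921), and DESeq2 also called 1. Libraries of hy5 and WT overlapped for each of the 10 genes, as for most genes: 2.69% of all genes had all hy5 libraries higher and 4.96% had all lower. Between same-numbered libraries COR15A was higher in hy5 in 3 of 3 pairs and CBF3 lower in 3 of 3, and the other 8 genes went both ways. The labels do not say that the numbers mark matched libraries. In high light the columns of hy5 replicate 1 and WT replicate 2 are named in 1 style and the others in another. Matched by that style, hy5 replicate 2 would stand against WT replicate 1, and COR15A was lower in hy5 there (29.7 against 45.2 CPM). Without replicate 3, DREB2A was higher in hy5 by 1.81 ± 0.40 and KIN1 was lower by -2.62 ± 0.53, and both were called, where 30% of all genes were. The interaction of genotype with light was called for none of the 10, where 0.089% of all genes were called, 2 had an unadjusted p under 0.05 and DESeq2 called 0. Those 2 were DREB2A (hy5 light effect larger by log2 1.87 ± 0.78, adjusted p = 0.295) and RD29A (larger by 1.86 ± 0.61, adjusted p = 0.222). Without the replicate 3 libraries of high light both were called, at 3.04 ± 0.68 for DREB2A and 2.69 ± 0.42 for RD29A, where 25.2% of all genes were called, and both were also called when replicate 3 of WT in high light alone was left out.

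**Figure D3:**
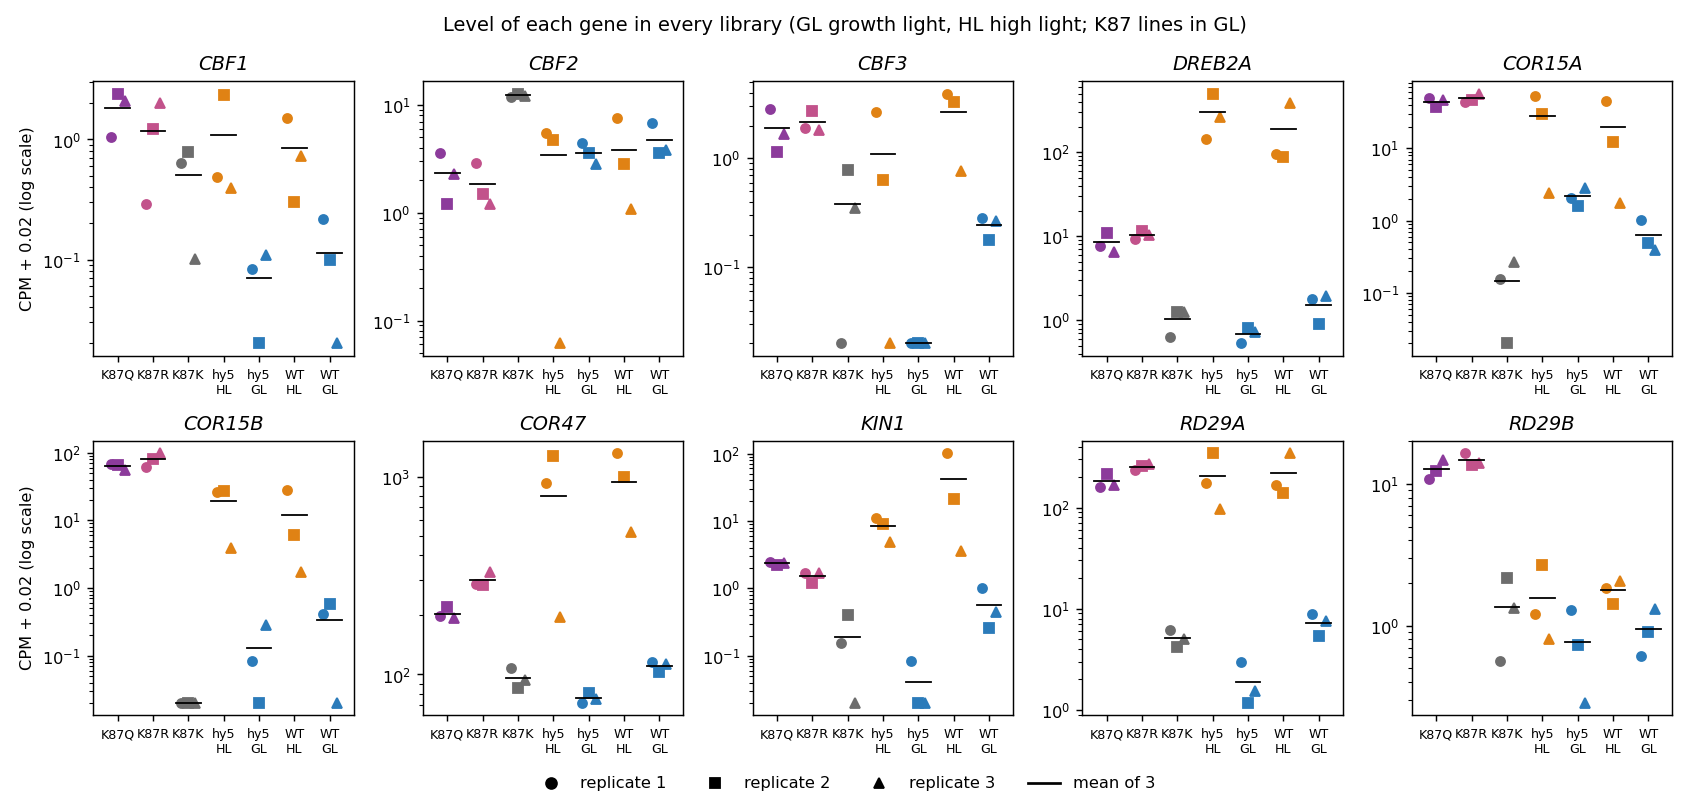
Level of each gene in all 21 libraries (y axis, CPM + 0.02 on a log scale; x axis, the 7 groups; marker shape, replicate; line, mean of 3). K87Q and K87R lie close together and above K87K for COR15A, COR15B, RD29A, RD29B and DREB2A, CBF2 is highest in K87K, and replicate 3 of high light is low for the COR15 genes, COR47 and CBF2.

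Most of these genes were higher in growth light in the lines with a substituted lysine than in K87K. Against K87K, 6 of 10 genes rose in K87Q and none fell, where 6.62% of all genes rose, 8.7% fell and 15.3% changed. In K87R 6 rose and 1 fell, where 6.71% of all genes rose, 8.37% fell and 15.1% changed. COR15A, COR15B, RD29A, RD29B and DREB2A rose in both, KIN1 in K87Q and COR47 in K87R. The median log2 fold change of the 10 genes was 3.14 in K87Q and 3.20 in K87R, against 0.04 and 0.06 over all genes. Without the replicate 3 libraries of high light, which enter the shared estimate of spread, 8 genes rose and 1 fell in each line. At that setting 18.3% of all genes rose, 20.5% fell and 38.8% changed in K87Q, and 17.8% rose, 19.8% fell and 37.6% changed in K87R. The comparisons share the K87K libraries and are not independent. The residue changed together with the line, and for K87R possibly with the allele.

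COR15B showed the widest separation. It stood at 67.4, 66.1 and 54.9 CPM in K87Q and 61.1, 81.2 and 98.2 CPM in K87R, against 0 counts in all 3 K87K libraries, and was at least 839.5-fold higher in K87Q (adjusted p = 5.88e-05) and at least 1105-fold higher in K87R (adjusted p = 4.29e-05). The bounds take 3 counts over the K87K group as its floor. COR15A stood at 49.3, 37.8 and 46.1 CPM in K87Q and 43.1, 47.1 and 57.3 CPM in K87R, against 0.137, 0 and 0.245 in K87K, and rose by log2 8.38 ± 1.27 (adjusted p = 1.75e-04) and 8.52 ± 1.27 (adjusted p = 1.45e-04). No library of either line overlapped the K87K values, which rested on 5 counts in all for COR15A. COR15B exceeded COR15A 1.19 to 1.75 times in K87Q and 1.42 to 1.73 times in K87R, against 0.496 to 0.974 times in WT in high light, which does not overlap either line, and 0.493 to 1.64 times in hy5 in high light, which does. The genes have the same exon length of 1584 bases.

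RD29A stood at 158, 217 and 168 CPM in K87Q and 234, 256 and 270.0 CPM in K87R, against 6.09, 4.14 and 4.99 in K87K, and rose by log2 5.16 ± 0.50 (adjusted p = 1.16e-06) and 5.64 ± 0.51 (adjusted p = 6.08e-07). RD29B, which high light left uncalled, stood at 10.8, 12.3 and 14.7 CPM in K87Q and 16.5, 13.6 and 14.0 CPM in K87R, against 0.547, 2.15 and 1.31 in K87K. It rose by 3.24 ± 0.54 (adjusted p = 4.06e-04) and 3.46 ± 0.55 (adjusted p = 2.31e-04). Libraries of K87Q and K87R lay above all K87K libraries for both genes. The ratio of RD29A to RD29B counts was 11.5 to 17.6 in K87Q and 14.2 to 19.2 in K87R, against 1.93 to 11.1 in K87K.

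DREB2A stood at 7.74, 11 and 6.57 CPM in K87Q and 9.30, 11.5 and 10.3 CPM in K87R, against 0.616, 1.23 and 1.23 in K87K, and rose by log2 3.04 ± 0.57 (adjusted p = 0.00100) and 3.34 ± 0.57 (adjusted p = 4.80e-04). COR47 stood at 198, 218 and 194 CPM in K87Q and 285, 283 and 328 CPM in K87R, against 108, 85.0 and 93.6 in K87K. Its difference was 1.09 ± 0.45 in K87Q (adjusted p = 0.110) and 1.64 ± 0.46 in K87R (adjusted p = 0.0193), although neither line overlapped K87K. The K87R call was lost without any of the 3 K87K libraries or without K87R replicate 3 (1.56 to 1.74), and K87Q passed without replicate 3 of hy5 in high light. KIN1 rose by 3.69 ± 1.01 in K87Q (adjusted p = 0.0170), at 2.48, 2.2 and 2.40 CPM against 0.137, 0.383 and 0 in K87K, and stood at 1.70, 1.2 and 1.66 CPM in K87R (3.05 ± 1.03, adjusted p = 0.0515). The K87Q call was lost without K87K replicate 1 or 3 (3.17 to 3.54), and K87R passed without replicate 1 or 3 of WT in high light. Without both replicate 3 libraries of high light, COR47 passed in K87Q (1.08 ± 0.15) and K87R (1.64 ± 0.16). KIN1 also passed at that setting (3.68 ± 0.71 in K87Q and 3.03 ± 0.75 in K87R). KIN2 averaged 716.5 ± 132.5 CPM in K87Q and 547 ± 68.4 CPM in K87R, against 22.1 ± 5.12 in K87K (SD, n = 3 each), and was 257 to 350.3 and 290.2 to 438.5 times KIN1 in the same libraries.

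Of the CBF genes, CBF2 went the other way. It stood at 3.58, 1.17 and 2.25 CPM in K87Q and 2.86, 1.47 and 1.2 CPM in K87R, against 11.9, 12.7 and 12.2 in K87K. It fell by 2.75 ± 0.87 on the log2 scale in K87R (adjusted p = 0.0387), a call lost without any of 10 single libraries and with library totals (log2 -3.20 to -2.11), and was lower by -2.39 ± 0.85 in K87Q (adjusted p = 0.0636). Without both replicate 3 libraries of high light CBF2 was called lower in both lines (-2.39 ± 0.41 in K87Q and -2.78 ± 0.43 in K87R). All K87K values lay above those of every other group, the next being WT in growth light at 4.68 ± 1.75 CPM (SD, n = 3). CBF1 stood at 1.02, 2.40 and 2.06 CPM in K87Q and 0.268, 1.2 and 1.98 CPM in K87R, against 0.616, 0.767 and 0.0818 in K87K, and was not called in either (adjusted p = 0.217 and 0.441). CBF3 stood at 2.83, 1.12 and 1.67 CPM in K87Q and 1.88, 2.71 and 1.82 CPM in K87R, against 0, 0.767 and 0.327 in K87K, and was not called either (adjusted p = 0.193 and 0.164). Without both replicate 3 libraries of high light CBF3 was called higher in K87Q (2.35 ± 0.77, adjusted p = 0.0194) and K87R (2.55 ± 0.78, adjusted p = 0.0128). CBF1 remained uncalled there (adjusted p = 0.106 and 0.295).

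**Figure D4:**
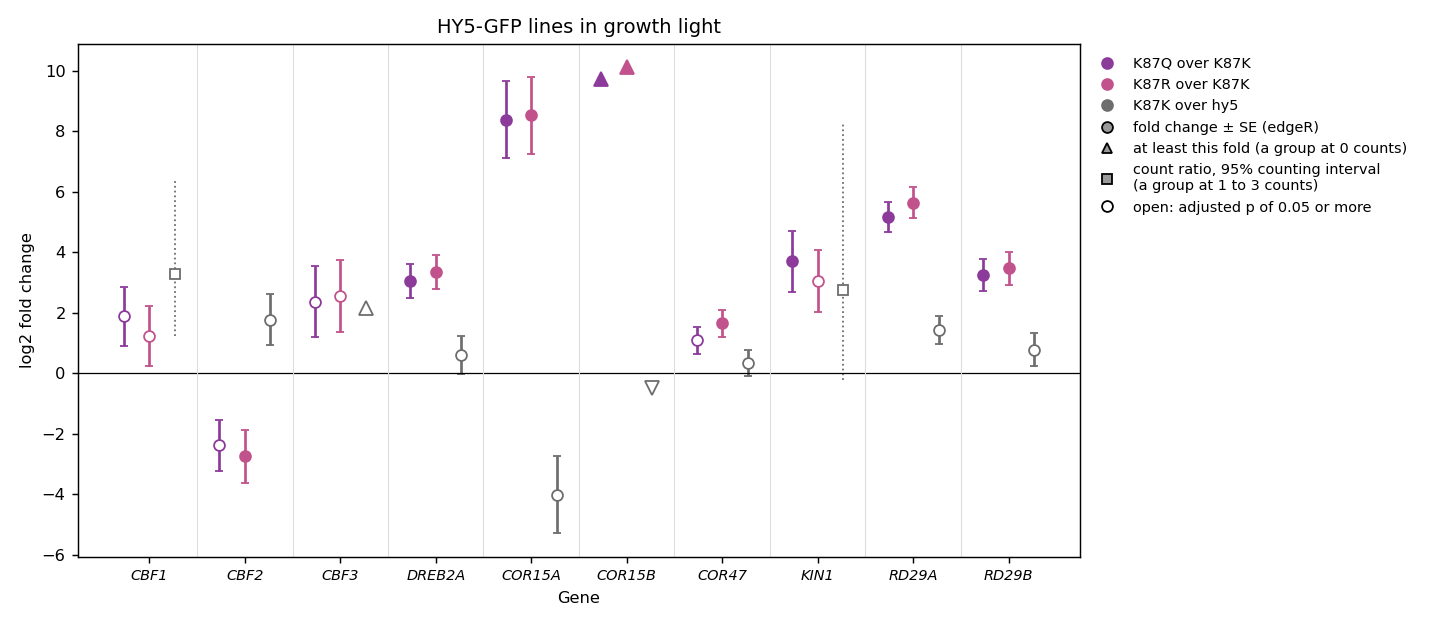
Difference between HY5-GFP lines, and between K87K and hy5, for each gene (y axis, log2; K87Q over K87K, K87R over K87K and K87K over hy5 from left to right; circles, edgeR log2 fold change ± SE; triangles, bounds against a group at 0 counts; squares, count ratios with 95% counting intervals). The K87Q and K87R values lie close together for every gene, and only CBF2 is below 0 for both.

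Against hy5, 9 of 10 genes rose in K87Q, where 7.35% of all genes rose, 9.38% fell and 16.7% changed, and 9 of 10 rose in K87R, where 11.1% rose, 11.3% fell and 22.4% changed. CBF2 was the exception in both (log2 -0.62 ± 0.83 and -0.99 ± 0.85, adjusted p = 0.658 and 0.430). CBF3, at 0 counts in hy5, was at least 24.8-fold higher in K87Q and at least 28.1-fold higher in K87R. The CBF1 call over hy5 was lost in K87Q without hy5 replicate 2, and in K87R without any of the 3 hy5 libraries or K87R replicate 3. The COR47 rise over hy5 in K87Q (1.42 ± 0.45, adjusted p = 0.0367) was lost without any single library of either group (1.37 to 1.47). Against WT in growth light, a comparison added after the data were seen, 6 of 10 rose in K87Q, where 7.22% of all genes rose, 9.53% fell and 16.7% changed, and 7 of 10 rose in K87R, where 5.93% rose, 8.59% fell and 14.5% changed. These were CBF1, DREB2A, COR15A, COR15B, RD29A and RD29B in both lines, with COR47 in K87R. The CBF1 call was lost in K87Q without WT replicate 2 or 3 of growth light (log2 3.62 to 4.13). In K87R the CBF1 call was lost without any of 12 single libraries (log2 2.93 to 4.74 over all settings that lost it), and the COR47 call without any of 15 (1.36 to 1.47). Without both replicate 3 libraries of high light, 9 genes rose against hy5 in each line. There 20.5% of all genes rose and 40.6% changed in K87Q, and 23.5% rose and 45.7% changed in K87R. Against WT in growth light 9 rose in K87Q, where 19.6% of all genes rose and 39.9% changed. In K87R 8 rose and 1 fell, where 17.6% rose, 19.2% fell and 36.8% changed.

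No difference of K87K from hy5 or WT passed for these genes. None of the 10 was called by edgeR in K87K against hy5, where 0.84% of all genes were, 5 had an unadjusted p under 0.05, and DESeq2 called 1. COR15A averaged 0.127 ± 0.123 CPM in K87K and 2.16 ± 0.63 in hy5 (log2 -4.02 ± 1.28, adjusted p = 0.167), and CBF2 averaged 12.3 ± 0.420 CPM in K87K and 3.60 ± 0.793 in hy5 (1.77 ± 0.84, adjusted p = 0.406; SD, n = 3 each). Neither gene's groups overlapped. Without the replicate 3 libraries of high light, 4 of the 10 were called in K87K against hy5, where 14.5% of all genes were: CBF2, CBF3, COR15A and RD29A. Against WT none was called, where 1.09% of all genes were, none had an unadjusted p under 0.05, and DESeq2 called 0. CBF2 was called there without replicate 3 of high light (log2 1.39 ± 0.40), where 13.4% of all genes were. K87Q against K87R gave no call among the 10 and 0% over all genes, with log2 differences between -0.56 ± 0.45 (COR47) and 0.64 ± 0.93 (CBF1), no unadjusted p under 0.05 and 0 calls by DESeq2. The SE of these differences ran from 0.41 to 1.06. A difference of several times its SE can go uncalled in this fit, as COR15A in K87K against hy5 did. The lack of calls therefore does not show that K87Q and K87R are alike. Without the replicate 3 libraries of high light COR47 was called (-0.56 ± 0.15), where 10.5% of all genes were.

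The substituted lines in growth light and WT in high light were set side by side after the data were seen, and they differ in both genotype and light. In K87Q 2 genes were higher and 3 lower, where 13.1% of all genes were higher, 17.4% lower and 30.5% changed. The same counts held in K87R, where 12.2% were higher, 16.1% lower and 28.3% changed. COR15B (log2 2.40 ± 0.82 in K87Q and 2.76 ± 0.83 in K87R) and RD29B (2.83 ± 0.53 and 3.05 ± 0.53) were the higher ones. DREB2A (-4.49 ± 0.56 and -4.19 ± 0.55), COR47 (-2.22 ± 0.46 and -1.66 ± 0.46) and KIN1 (-4.15 ± 0.82 and -4.79 ± 0.86) were the lower ones. The COR47 call in K87R was lost with library totals (log2 -0.68). The COR15B call was lost in K87Q without any of 5 single libraries, among them replicates 2 and 3 of WT in high light (log2 1.87 to 2.48 over all settings that lost it), and in K87R without K87R replicate 3 or replicate 2 of WT in high light (2.44 to 2.74). RD29A was at 181 ± 31.2 CPM in K87Q and 253 ± 18.2 in K87R, against 217 ± 112 in WT in high light, and was not called (adjusted p = 0.670 and 0.730). COR15A averaged 44.4 ± 5.92 CPM in K87Q and 49.2 ± 7.33 in K87R, against 19.7 ± 22.7 in WT in high light (SD, n = 3 each), and was not called (adjusted p = 0.297 and 0.246). When replicate 3 of high light was left out, 2 genes were higher and 4 lower in K87Q, where 24.8% of all genes were higher, 25.4% lower and 50.1% changed. In K87R 3 were higher and 4 lower, where 26.9% of all genes were higher, 26.7% lower and 53.5% changed. The added calls were CBF2, lower in K87Q (-1.15 ± 0.45) and K87R (-1.54 ± 0.47), and RD29A, higher in K87R (0.72 ± 0.27).

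Set per kilobase of exon, COR47 was the highest of the 10 genes in all 7 groups, at 87.5 CPM per kb in K87Q, 129 in K87R, 41.2 in K87K, 344.5 in hy5 and 407 in WT in high light, and 32.7 in hy5 and 47.7 in WT in growth light. The gene ranked next differed by group: RD29A in K87Q (68.0) and K87R (95.1), DREB2A in high light (183 in hy5 and 114.5 in WT), and CBF2 in K87K (12.4) and in growth light (3.65 in hy5 and 4.75 in WT). DREB2A was highest in hy5 in high light, at 302 ± 182 CPM, and lowest in hy5 in growth light, at 0.672 ± 0.146 (SD, n = 3 each). Between these came K87K, WT in growth light, K87Q, K87R and WT in high light in rising order, and neighbours in that order overlapped except K87Q with WT in growth light and K87R with WT in high light. The order was another one for COR15B, which was highest in K87R and K87Q and listed at 0 in K87K. RD29B likewise had K87R and K87Q highest, apart from all other groups. Neighbours in the order of those groups overlapped, although all libraries of WT in high light lay above those of WT in growth light.

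Other genes of the pathway were followed in 5 lists, whose counts are to be read against the shares of all genes: 18.9% higher and 17.7% lower for light in hy5, 14% and 10.8% for light in WT, 6.62% and 8.7% in K87Q and 6.71% and 8.37% in K87R against K87K. Among factors, 5 of 10 other CBF and DREB2 genes had enough counts, and 3 rose and 1 fell in high light in both genotypes. DREB2C, a heat-responsive relative of DREB2A, rose by log2 5.69 ± 0.47 in hy5 (adjusted p = 5.12e-08) and 5.27 ± 0.46 in WT (adjusted p = 1.93e-07). Leaving out replicate 3 of high light gave rises of 5.43 ± 0.36 and 4.8 ± 0.36. The gene that fell was AT1G75490. Of 21 tested upstream regulators, 10 rose and 3 fell in hy5, and 4 rose and 2 fell in WT (4 and 8 without replicate 3 of high light). The WT count is 28.6% of the list, against 24.8% of all genes. HSFA3, a heat stress factor, is counted in this list although it is known to act below DREB2A, and it rose by 5.17 ± 0.40 in each genotype. The clock gene PRR5, a repressor of CBF genes, rose by 3.13 ± 0.31 in hy5 and 3.47 ± 0.32 in WT, and ICE2, a relative of the CBF activator ICE1, fell by 1.76 ± 0.41 and by 1.61 ± 0.41. The differences in hy5 and WT without replicate 3 of high light were 5.32 ± 0.36 and 5.01 ± 0.36 for HSFA3, 3.29 ± 0.27 and 3.30 ± 0.27 for PRR5, and -2.23 ± 0.31 and -2.22 ± 0.31 for ICE2. In K87Q against K87K none of these regulators rose and 4 fell, and in K87R none rose and 2 fell, 9.52% of the list. Without replicate 3 of high light none rose and 9 fell in K87Q, where 18.3% of all genes rose and 20.5% fell. At that setting 2 rose and 5 fell in K87R, where 17.8% of all genes rose and 19.8% fell. LHY, a morning clock factor that binds the evening element, fell by 5.38 ± 0.89 in K87Q and by 3.79 ± 0.81 in K87R, and HSFA3 stood at 5.17 ± 1.95 CPM in K87Q and 5.20 ± 0.549 in K87R, against 5.31 ± 1.90 in K87K (SD, n = 3 each).

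Among 21 further COR, LTI and ERD targets, 8 rose and 1 fell in hy5 in high light and 7 rose in WT, with a median log2 change of 0.45 and 1.02. GOLS1, an enzyme of galactinol synthesis, rose by 6.12 ± 0.64 in hy5 and 5.92 ± 0.63 in WT, or by 6.64 ± 0.24 and 6.10 ± 0.23 without replicate 3. Against K87K, 9 rose in K87Q and 8 rose and 1 fell in K87R, with medians of 1.38 and 0.89. ERD10 rose by 2.14 ± 0.29 in K87Q and 2.85 ± 0.30 in K87R, whereas GOLS1 fell by 1.60 ± 0.53 in K87R and differed by -1.08 ± 0.52 in K87Q (adjusted p = 0.175). Without replicate 3 of high light, 9 targets rose and 1 fell in hy5, and 13 rose and 2 fell in WT. At that setting 11 rose and 1 fell in each of K87Q and K87R against K87K.

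Of 9 genes of abscisic acid synthesis and breakdown, 1 rose in hy5 in high light, and 2 rose and 2 fell in WT. CYP707A4, a hydroxylase that breaks the hormone down, rose by 5.55 ± 0.72 in hy5 and 3.82 ± 0.67 in WT, and the synthesis genes ABA1 and NCED3 fell in WT by 0.91 ± 0.30 and by 1.72 ± 0.56. These 4 values without replicate 3 of high light were 4.95 ± 0.61, 3.22 ± 0.59, -1.25 ± 0.17 and -1.60 ± 0.35, in that order, and NCED3 was higher in hy5 (0.88 ± 0.31). Against K87K, 1 gene of this list rose and 3 fell in each of K87Q and K87R without replicate 3 of high light. With all libraries ABA1, which encodes zeaxanthin epoxidase, was the single call in both lines. It stood at 47.3 ± 4.94 CPM in K87Q and 62.1 ± 6.36 in K87R, against 252 ± 21 in K87K (SD, n = 3 each), and fell by 2.41 ± 0.32 (adjusted p = 3.62e-05) and by 2.02 ± 0.31 (adjusted p = 1.91e-04). Of 26 tested receptors, phosphatases, kinases and bZIP factors of abscisic acid signalling, 9 rose and 5 fell in hy5 and 6 rose and 1 fell in WT in high light, or 53.8% and 26.9% of the list (12 and 6, and 8 and 2, without replicate 3), the WT share being near the 24.8% of all genes that changed. In each of K87Q and K87R 10 rose and 3 fell against K87K (11 and 5 in K87Q, and 13 and 5 in K87R, without replicate 3 of high light). The phosphatase gene ABI1, a brake on the pathway, rose by 1.55 ± 0.32 in K87Q and 0.98 ± 0.32 in K87R, the kinase gene SNRK2.2 rose by 1.48 ± 0.24 and 1.2 ± 0.23, and the receptor gene PYL5 fell by 2.16 ± 0.68 and by 2.97 ± 0.70.

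**Figure D5:**
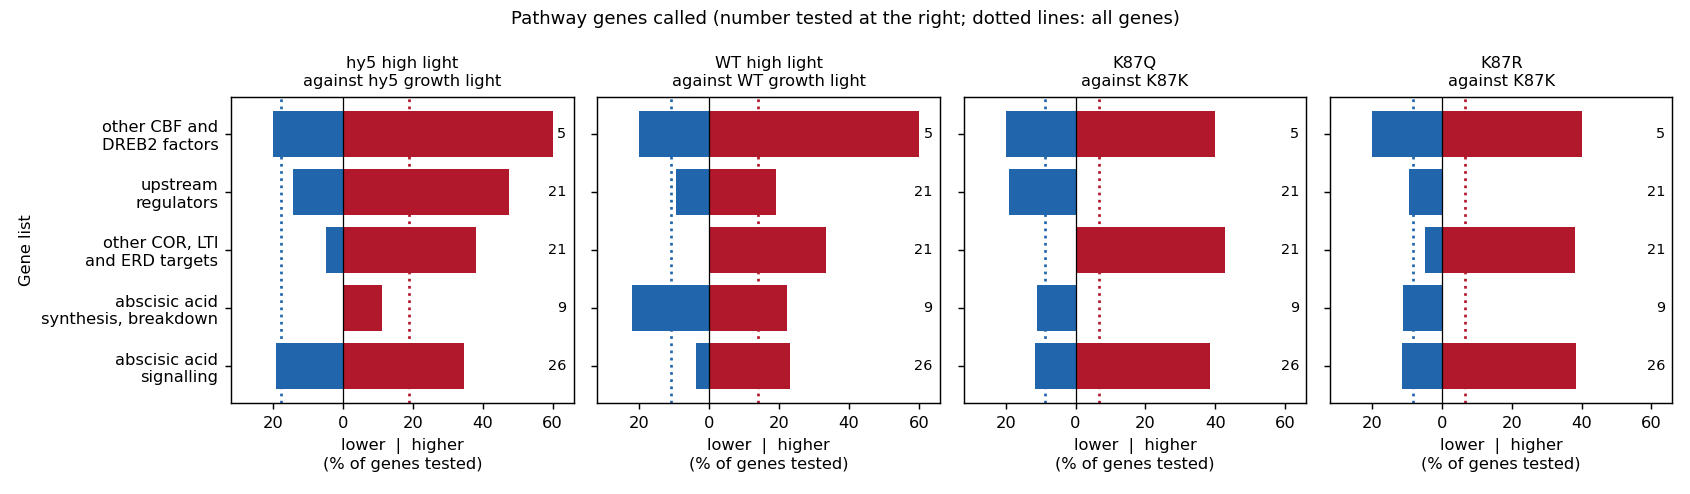
Share of the tested genes of 5 pathway lists that were higher (right) or lower (left) in 4 comparisons (x axis, percent of the genes tested, whose number stands at the right; dotted lines, the share of all genes). Of the COR, LTI and ERD targets outside the 10 genes, 9 of 21 were higher in K87Q and 8 of 21 in K87R. With all libraries no gene of the upstream regulator list, which includes HSFA3 from below DREB2A, was higher in the lines. Without the replicate 3 libraries of high light 2 were higher in K87R.

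Markers of other tissues moved with these differences between lines. The summed level of 6 seed storage genes was 19.8 to 32.8 CPM in K87Q and 6.44 to 14.1 in K87R, against 0 to 0.818 in K87K. SESA1 was at 0 in all 3 lines, and CRA1, SESA3 and EM1 were at 0 in K87K. The sum was at most 2.62 CPM in WT in high light and lower in hy5 and in growth-light WT. The 3 genes tested therefore passed the filter on low counts largely through K87Q and K87R, and their calls are not counted here. Root markers summed to 1016 to 1252 CPM in K87Q and 1342 to 1495 in K87R, against 2593 to 3143 in K87K, and 4 of 6 fell in each. Green-tissue markers summed to 38370 to 56780 CPM in K87Q and 26080 to 28830 in K87R, against 55770 to 73170 in K87K, where 1 and 2 of 6 fell, and 3 guard cell markers summed to 8.68 to 12.1 CPM in K87Q and 10.7 to 14.4 in K87R, against 5.07 to 6.29 in K87K, where 1 of 3 rose in each. The part of these tissues in the results was not tested.

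The genes outside the 10 whose pattern over the 21 libraries was nearest to a member were found by the root-mean-square difference of log2 CPM, each gene centred on its mean. For RD29A these were COR27 (1.08), AT1G17665 (1.17) and KIN2 (1.31), and for COR15A they were AT1G51090 (1.2), LEA4-5 (1.46) and AT3G03341 (1.46). DREB2A was nearest to the co-chaperone genes Fes1A (0.80) and ATERDJ3A (0.88) and to the HSP90 gene HSP81-2 (0.87), and its nearest gene among the 10 was KIN1, 103rd of all genes. CBF2 was nearest to AT2G39210 (0.61), AT3G02880 (0.65) and EBP (0.65), and its nearest member, COR47, came 17766th. COR15A and COR15B were each other's nearest member, at 1.37, nearer to COR15A than LEA4-5 or AT3G03341.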

How the data were processed

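The authors deposited raw read counts per gene for 21 libraries of poly(A)-selected RNA. Per the submitters' processing notes, the build was TAIR10, and the tools named are featureCounts 1.5.0-p3, HISAT2 2.0.5, fastp, DESeq2 1.20.0 and StringTie 1.3.3b. Whether counting used strand is not given in the sources used here, so reads of overlapping genes cannot be told apart. All value columns of the table (0 left unmatched) were tied to samples by name. Genes with enough counts (filterByExpr, minimum count 10) numbered 20234. A quasi-likelihood fit of all 21 libraries in edgeR 4.0.16 (R 4.3.3, limma 3.58.1), with TMM scaling and 7 group means, gave 16 contrasts. Of these, 11 were planned and 5 (the lines against WT in either light) were added after the data were seen. A call is an adjusted p under 0.05 over all genes tested, with no adjustment for the number of contrasts, which share libraries. The fit was tested on simulated data. CPM were computed from the counts with TMM-scaled library sizes.

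The members and the pathway and marker lists were chosen with earlier results of these data known. Named were all 10 members, the 3 genes of each list with the smallest adjusted p in each direction in the light contrasts where space allowed, and the tandem neighbours KIN2 and ERD10. Genes named from the lists for the lines beyond these were chosen after their values were seen. Against a group at 0 counts a fold is a bound that sets that group at 3 counts in all, and against 1 to 3 counts a ratio with an exact 95% binomial interval. Intervals and floors cover counting error only. The labels call the replicates biological. Same-numbered libraries deviated together in hy5 and WT in high light (r = 0.381, 0.159 and 0.483), where the numbers were read as pairs, and not throughout in the other planned contrasts (r from -0.126 to 0.134). Alternatives were DESeq2 1.42.0, RLE size factors, library totals, no filter, the spread of the compared libraries alone, a replicate block, and leaving out libraries. Promoter sequence is from RefSeq (TAIR10.1).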

Additional observations from a re-analysis of the deposited data

How the results depend on the processing

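Of 69 calls on the 10 genes, 54 held in every alternative, 15 were lost in at least one, and 0 turned direction. Of 91 differences that were not called, 27 changed sign under at least one alternative, CBF2 and RD29A against WT in high light among them. CBF2 in K87Q was at log2 -0.68, against 0.092 with library totals and -1.15 to 0.32 without single libraries, and in K87R at -1.05, against 0.063 with library totals. RD29A in K87R was at 0.22, against -0.014 to 0.72 without single libraries. The count of genes called among the 10 moved as follows, with the count over all genes tested in brackets. In hy5 against WT in growth light it was 0 (44), against 1 with DESeq2 (373), 3 with the spread of the compared libraries alone (6863), 4 without the replicate 3 libraries of high light (2125) and 0 to 1 without single libraries (3 to 349). In hy5 against WT in high light it was 0 (636), against 1 with DESeq2 (1715), 2 without both replicate 3 libraries (6117) and 0 to 2 without single libraries (237 to 4737). The interaction gave 0 (18), against 2 without both replicate 3 libraries (5153) and 0 to 2 without single libraries (2 to 3382). K87K against hy5 gave 0 (170), against 1 with DESeq2 (624), 4 with the own spread (5497), 4 without both replicate 3 libraries (2956) and 0 to 1 without single libraries (37 to 706). K87K against WT gave 0 (221), against 1 with the own spread (5049) and 1 without both replicate 3 libraries (2740). K87Q against K87K gave 6 (3099), against 10 with the own spread (8709), and 8 higher and 1 lower without both replicate 3 libraries (7916). K87R against K87K gave 7 (3050), and 8 higher and 1 lower without both replicate 3 libraries (7687). K87Q against K87R gave 0 (0), against 2 with the own spread (4436) and 1 without both replicate 3 libraries (2148). K87Q against WT gave 6 (3389), against 10 with the own spread (10277) and 9 without both replicate 3 libraries (8153). K87R against WT gave 7 (2938), and 8 higher and 1 lower without both replicate 3 libraries (7523). Without single libraries the count was 7 to 8 in hy5 and 6 to 8 in WT for light, 7 to 9 for K87Q and 8 to 9 for K87R against hy5, 5 to 8 for each against K87K and WT, and 4 to 6 for each against WT in high light.

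The replicate block, which treats same-numbered libraries as matched, gave 0 calls in hy5 against WT in high light, as without it, and 0 in the interaction. It gave 6 for light in WT (7 without it), 7 in K87Q and 8 in K87R against K87K (6 and 7 without it), and 6 in K87R against WT (7 without it). It changed no other count among the 10.

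Over the whole table the 2 replicate 3 libraries of high light set much of the spread. Without them 9674 genes were called for light in hy5 (7390 with them, 3097 with the own spread), 9513 in WT (5019, 2906 with the own spread), 5153 in the interaction (18), 2125 in hy5 against WT in growth light (44, 6863 with the own spread) and 6117 in high light (636, 1 with the own spread). They were 7916 in K87Q (3099) and 7687 in K87R (3050) against K87K, 2956 in K87K against hy5 (170) and 2148 in K87Q against K87R (0, 4436 with the own spread and 62 with DESeq2). Library totals in place of TMM moved the median log2 difference of all genes by up to 0.96, in K87R against hy5, to 1.05. The low counts of CBF1, CBF3 and KIN1 in growth light limit their folds.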
